A study of Mus musculus with 16 samples.

Results

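The CD45+ immune cells of stretched mouse skin were compared with its CD45- stromal cells, across the mRNA of every gene with enough reads. The comparison took all 8 libraries labelled stretched out of the 16 of the series, 4 of the CD45+ immune fraction and 4 of the CD45- stromal fraction, chosen by their labels alone. Of 55487 genes in the count table, 17116 had enough reads in these 8 libraries to be tested. The skin had been placed under hypobaric pressure, a suction that stretches it, and the cells were analysed 6 h later. The other 8 libraries, 4 of each fraction, came from unstretched skin of the same area and serve here to show which sort differences were also seen without stretch, to test the difference of the sort effects, and in alternative fits. Libraries are named by the number in their titles, which are immune 1, 2, 7 and 8 and stromal 5, 6, 7 and 8 in stretched skin and immune 3 to 6 and stromal 1 to 4 in unstretched skin. Strain, genotype, age and the number of animals behind the libraries are not stated in the sources used here, and p-values therefore reflect only how far libraries of a fraction differ, which may be technical.

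CD45 is a membrane phosphatase encoded by *Ptprc* and carried by nearly all nucleated blood-derived cells, which is why it is used to part leukocytes from the cells that build a tissue. In skin the CD45+ cells are mainly macrophages, dendritic cells, mast cells and T cells, while fibroblasts, keratinocytes, vessel cells, pericytes, pigment cells and nerve-associated cells lack it. Fibroblasts lay down collagen and release factors that feed and attract leukocytes, and leukocytes release cytokines and growth factors that act on receptors of stromal cells.

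The stromal libraries were deeper, at 21955174 to 26944965 counted reads against 7018743 to 20095580 in the immune libraries, and the ranges did not overlap. Immune library 2 stood apart from the other immune libraries: its log2 CPM (reads of a gene scaled to the reads of the library) correlated with theirs at 0.907 to 0.927 across genes, while the other 3 correlated with each other at 0.975 to 0.985. Stromal libraries 7 and 8 held 424 and 208 CPM of reads from olfactory and vomeronasal receptor genes, which skin should hardly express, against 20.6 to 50.01 CPM in the other 6 libraries. Mitochondrially encoded genes took 1.21% to 1.68% of the reads in the immune libraries and 0.180% to 0.404% in the stromal libraries. The results below were therefore also computed without each library, without stromal 7 and 8, and without these and immune 2.

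The sort marker separated the fractions. *Ptprc* stood at 358, 646, 429 and 412 CPM in immune libraries 1, 2, 7 and 8 and 0.905, 0.969, 3.57 and 1.25 CPM in stromal libraries 5, 6, 7 and 8, a log2 fold change (immune minus stromal, here and below, ± SE) of 8.10 ± 0.57 with an adjusted p of 5.38e-06 in edgeR's quasi-likelihood test. A gene is called here when that p, adjusted by the Benjamini-Hochberg method over all 17116 genes, is under 0.05. All 15 genes of a leukocyte core list were called higher in the immune fraction, with a median log2 fold change of 8.23 where the median of all genes tested was -0.06. Among them, *Itgb2*, the shared chain of the leukocyte integrins, ranged over 197 to 363 against 0.821 to 1.58 CPM (immune against stromal), and *Coro1a*, an actin regulator of leukocytes, over 448 to 1035 against 1.36 to 3.70 CPM. *Laptm5*, a lysosomal membrane protein of blood cells, ranged over 543 to 684 against 1.11 to 4.18 CPM, and *Lcp1*, the leukocyte actin bundler L-plastin, over 375 to 1200.4 against 1.601 to 2.91 CPM. The summed level of the list was 4878 to 8043 CPM in the immune libraries and 45.9 to 104 CPM in the stromal libraries, so that no group overlapped the other. In such bulk libraries fewer cells of a type and less RNA per cell cannot be told apart.

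**Figure D1:**
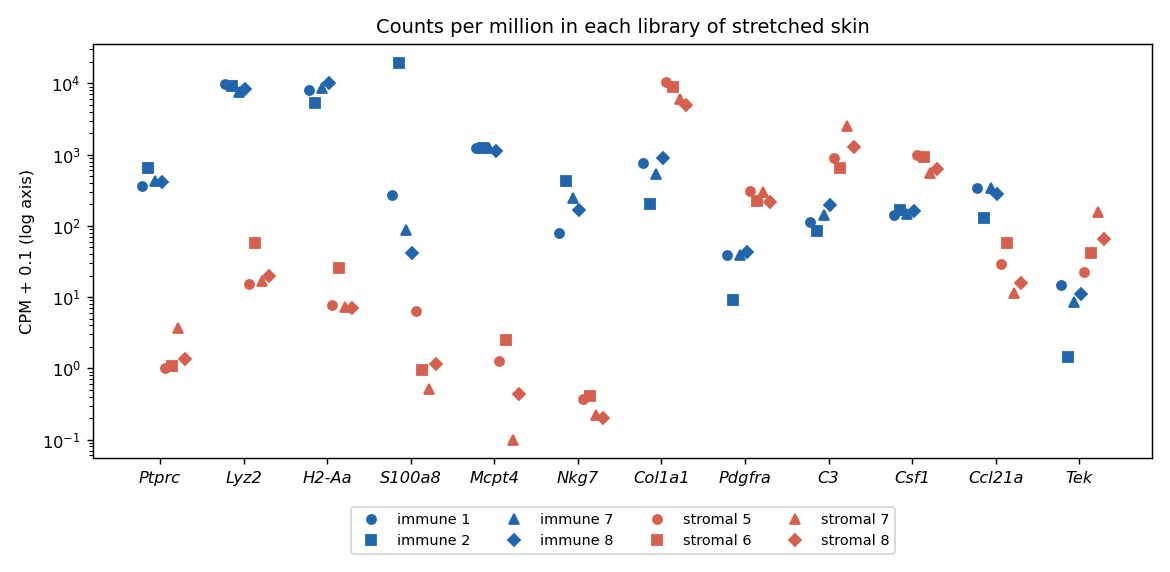
Normalised CPM (0.1 added, log axis) of 12 genes in each of the 8 libraries of stretched skin, immune libraries in blue and stromal libraries in red, 1 point per library. The 4 immune libraries lie above the 4 stromal libraries for *Ptprc*, *Lyz2*, *H2-Aa*, *S100a8*, *Mcpt4*, *Nkg7* and *Ccl21a*, and below them for *Col1a1*, *Pdgfra*, *C3*, *Csf1* and *Tek*; immune library 2 is highest for *S100a8* and lowest for *Pdgfra* and *Tek*.

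Nearly as many genes were called on each side, but the sizes of the differences were not alike. In all, 8380 genes were called, which is 49% of those tested. Of these, 4091 genes (23.9% of those tested) were called higher in the immune fraction and 4289 (25.1%) in the stromal fraction. All 4 immune libraries lay above all 4 stromal libraries in 4016 genes (23.5% of those tested), and the reverse held in 4376 (25.6%). A difference of at least 16-fold was called in 950 genes higher in the immune fraction and in 39 genes higher in the stromal fraction. At 64-fold and above the numbers were 529 and 5, whereas at 2-fold and above they were 3362 and 3436. With all 8 libraries thinned to the depth of the shallowest, 816 and 28 genes were called at 16-fold or more. When 1 library was left out in turn, the immune figure ranged from 881 to 1096. The stromal figure ranged from 40 to 152, with 104, 64, 117 and 152 genes without immune 1, 2, 7 and 8 and 81 without stromal 5. With no filter on low counts the figures were 1314 and 852. Genes of a fibroblast list summed to 9552, 1644.5, 11357 and 12194 CPM in immune libraries 1, 2, 7 and 8 and to 54454 to 74054 CPM in the stromal libraries, and none of its 16 genes was at 0 in either fraction. Its part in the smaller stromal folds was not tested.

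**Figure D2:**
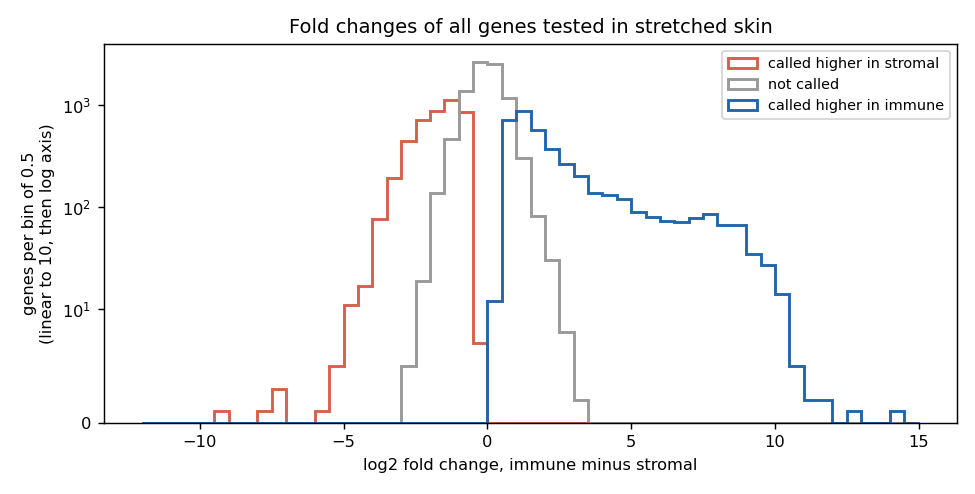
Distribution of log2 fold changes (immune minus stromal, x axis) over the 17116 genes tested, as genes per bin of 0.5 (y axis, linear to 10 and logarithmic above), drawn separately for genes called higher in the stromal fraction (red), not called (grey) and called higher in the immune fraction (blue). The blue outline reaches beyond a log2 fold change of 10, while the red outline holds 39 genes beyond -4.

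The immune genes with the largest fold changes came from several leukocyte lineages. They were taken as the 12 largest among called genes at 50 CPM or more in the higher fraction with groups that did not overlap. *Igkc*, the constant part of the immunoglobulin kappa light chain, had 57.1, 22.9, 273 and 116 CPM in immune libraries 1, 2, 7 and 8 and no read in any stromal library. The immune mean was at least 3863-fold higher than the floor of 3 reads over the 4 stromal libraries, 0.0304 CPM. *Cd69*, an early activation and tissue-retention receptor of lymphocytes, stood at 69.6, 109, 112 and 102 CPM in immune libraries 1, 2, 7 and 8 and 0.0452, 0.0440, 0 and 0.0675 CPM in stromal libraries 5, 6, 7 and 8. Its log2 fold change, 11.03 ± 0.44, had the smallest SE of the 12, with an adjusted p of 4.47e-07. *Gzma*, a granule protease of killer lymphocytes, ranged over 57.4 to 513 against 0 to 0.543 CPM, and *Mcpt4*, a chymase of connective tissue mast cells, over 1129 to 1252 against 0 to 2.38 CPM. *Gimap3*, a GTPase of lymphocytes, ranged over 25.7 to 112 against 0 to 0.136 CPM, and *Bcl2a1a*, an anti-apoptotic gene of leukocytes, over 41.9 to 103 against 0 to 0.123 CPM; the latter belongs to a group of near-identical copies that share reads, so its own level is uncertain. The other 5 protein-coding genes, *S100a8*, *S100a9*, *Clec4d*, *Mcemp1* and *Stfa2l1*, were highest in immune library 2. *Mcemp1*, a membrane protein of mast cells and myeloid cells, had 55.2, 1158, 55.8 and 45.9 CPM in immune libraries 1, 2, 7 and 8. *Stfa2l1*, also 1 of several near-identical copies, had 4.37, 405, 0.943 and 0.534 CPM in immune libraries 1, 2, 7 and 8.

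The remaining gene of those chosen for large immune fold changes was *Mir142hg*, the host transcript of the blood-cell microRNA miR-142. It stood at 56.4, 174, 64.4 and 51.0 CPM in immune libraries 1, 2, 7 and 8 and 0.0452, 0.0440, 0.0821 and 0.0337 CPM in stromal libraries 5, 6, 7 and 8. The other microRNA host genes among those tested, 5 in all with it, were read after its value was seen. A microRNA silences mRNAs that pair with its seed, bases 2 to 8. Mature microRNAs were not measured by this assay, and the sequences are shown to identify what each host carries. From RefSeq (GRCm38.p6), with the seed in capitals, the arms of the 3 hosts with the largest called fold changes are as follows, miR-142 at chr11:87756867-87756925, miR-155 at chr16:84714143-84714202 and miR-22 at chr11:75463734-75463793, all on the plus strand.
mmu-miR-142a-5p: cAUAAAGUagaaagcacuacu
mmu-miR-142a-3p: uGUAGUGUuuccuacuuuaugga
mmu-miR-155-5p: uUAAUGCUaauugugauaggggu
mmu-miR-155-3p: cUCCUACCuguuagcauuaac
mmu-miR-22-5p: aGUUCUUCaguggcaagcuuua
mmu-miR-22-3p: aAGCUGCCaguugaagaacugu
No seed is shared between these 6. *Mir155hg*, the host of a microRNA of activated lymphocytes and myeloid cells, was also higher in the immune fraction, at 60.1, 68.4, 81.1 and 88.3 against 12.8, 15.1, 22.1 and 21.5 CPM (libraries in the order given above), and its log2 fold change was 2.06 ± 0.24. *Mir22hg* (245 to 674 against 143 to 202 CPM, 1.02 ± 0.36) and *Mir17hg* (17.1 to 19.2 against 8.17 to 11.3 CPM, 0.94 ± 0.20) were called in the same direction with smaller differences. The call of *Mir22hg* was lost without stromal 5, 6, 7 or 8 (adjusted p from 0.0576 to 0.0994), and its log2 fold change was 0.59 without immune 2, its highest library. *Mir99ahg*, which carries miR-99a, let-7c and miR-125b, was not called, at 12.4 to 68.0 against 67.4 to 140.0 CPM and an adjusted p of 0.0964.

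Macrophage genes were high in every immune library, though not to the same level. Of 15 macrophage genes, 14 were called higher in the immune fraction, with a median log2 fold change of 7.37. *Mrc1*, the mannose receptor of tissue macrophages, stood at 418, 192, 302 and 232 against 0.905, 1.41, 0.534 and 0.877 CPM. *Cd68*, a lysosomal glycoprotein of phagocytes, ranged over 476 to 666 against 2.97 to 7.13 CPM, and *Adgre1*, the F4/80 antigen, over 65.9 to 217 against 0.271 to 1.63 CPM. *F13a1*, the coagulation factor XIII subunit made by dermal macrophages, had a log2 fold change of 5.61 ± 0.43, and *Fcgr1*, the high-affinity IgG receptor, of 8.52 ± 0.76. The 1 member not called was *Mertk*, the efferocytosis receptor, at 28.3, 11.5, 11.7 and 12.6 against 5.43, 8.89, 9.32 and 10.96 CPM (adjusted p = 0.0596). Immune library 2 held the lowest sum of the list, 1751 CPM, against 3677 to 6805 CPM in the other 3.

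Monocyte genes were called in 8 of 9 members tested. *Ccr2*, the receptor that brings monocytes out of blood, stood at 492, 433, 371 and 335 against 0.679, 0.881, 1.68 and 1.42 CPM, a narrow range within each fraction. *Ly6c2*, the marker of inflammatory monocytes, varied much more, with 1497, 753, 130.55 and 79.9 CPM in the immune libraries and 1.77 to 6.78 CPM in the stromal libraries. *Lyz2*, the myeloid lysozyme, ranged over 7671 to 9844 against 15.1 to 57.0 CPM, and *Chil3* and *F10*, a chitinase-like protein and coagulation factor X, over 14.8 to 106 against 0 to 0.270 CPM and 19.9 to 150.5 against 0.169 to 0.287 CPM.

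Dendritic cells carry antigen from skin to lymph nodes and show it on MHC class II, and 13 of 15 dendritic cell genes were called higher in the immune fraction. *Batf3*, a transcription factor needed by cross-presenting dendritic cells, stood at 51.2, 51.6, 61.1 and 50.7 against 1.04, 1.06, 0.657 and 0.742 CPM, and *Cd209a*, a lectin of dermal dendritic cells, at 357, 166, 607 and 765 against 0.588, 1.63, 1.19 and 0.809 CPM. Markers of maturation and migration were present: *Ccr7*, the receptor that guides dendritic cells to lymph nodes, ranged over 70.8 to 163 against 0.0675 to 0.944 CPM, and *Cd83* over 768 to 1845 against 2.31 to 9.95 CPM. *Fscn1*, an actin bundler of mature dendritic cells that fibroblasts and nerve cells also make, was called the other way, at 11.7, 8.78, 9.85 and 20.6 against 49.4, 30.5, 20.7 and 49.3 CPM. The MHC class II presentation list was called in 10 of 10 members, and it summed to 20671 to 61487 CPM in the immune libraries and to 52.8 to 184 CPM in the stromal libraries. *H2-Aa* and *H2-Ab1*, the 2 chains of the I-A molecule, had log2 fold changes of 9.41 ± 0.69 and 9.17 ± 0.71, and *H2-DMa*, which loads peptides onto it, of 7.43 ± 0.34. Of 5 Langerhans cell genes, *Cd207* (langerin, 16.6 to 33.2 against 0 to 0.308 CPM) and *Ltc4s* were called higher in the immune fraction, whereas *Mfge8* (19.5 to 91.4 against 253 to 444 CPM) and *Cdh1*, the E-cadherin of all epidermal cells (3.89 to 14.9 against 12.8 to 42.3 CPM), were called higher in the stromal fraction.

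Neutrophil genes differed far more between immune libraries than any other list. Of 12 members tested 11 were called higher in the immune fraction, with a median log2 fold change of 9.18, but the list summed to 1283, 42165, 675 and 439 CPM in immune libraries 1, 2, 7 and 8. The stromal libraries summed to 566 to 1035 CPM, so that immune 8 lay below and immune 7 within their range. Most of the stromal sum came from the member that was not called, *Il1r2*, the decoy receptor of interleukin 1, with 239.6, 3876, 233 and 199 CPM in the immune libraries and 506 to 977 CPM in the stromal libraries. Without immune library 2 *Il1r2* was called higher in the stromal fraction, at a log2 fold change of -1.65 and an adjusted p of 0.000821. *S100a8* and *S100a9*, the calprotectin subunits that fill the neutrophil cytoplasm, stood at 270.0, 19424, 87.0 and 41.1 against 6.29, 0.837, 0.411 and 1.05 CPM and at 359, 21582, 111 and 52.6 against 6.52, 0.528, 0.0821 and 0.337 CPM. *Csf3r*, the receptor for G-CSF, had 75.5, 793, 27.4 and 31.2 CPM in the immune libraries, and *Cxcr2*, the receptor that steers neutrophils towards CXCL1, had 12.5, 366, 3.24 and 1.603 CPM. In every one of these 4 genes immune library 2 was the highest and all 4 immune libraries were above all 4 stromal libraries. Without stromal 7 and 8 together 4 of the neutrophil genes were called, and without each single library 11 or 12 were. DESeq2 gave no adjusted p for any of the 12.

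All but 1 of 13 mast cell genes were called higher in the immune fraction, with a median log2 fold change of 8.78, and the list summed to 5118 to 6797 CPM in the immune libraries against 45.0 to 305 CPM in the stromal libraries. The member not called, *Il1rl1*, had a mean of 104 CPM in the stromal fraction and 49.0 CPM in the immune fraction. The stromal sum is therefore not a measure of mast cells alone. *Mcpt4* stood at 1220.2, 1252, 1219 and 1129 CPM in the immune libraries, *Cpa3*, the mast cell carboxypeptidase, at 698, 603, 825 and 896 CPM, and *Mrgprb2*, the receptor for basic secretagogues, at 31.7, 24.2, 43.7 and 46.5 CPM. The corresponding stromal ranges were 0 to 2.38, 0.123 to 1.27 and 0 to 0.101 CPM. *Il4*, a cytokine that mast cells and type 2 lymphocytes make, stood at 70.8, 86.5, 83.1 and 63.4 against 0.226, 0.2201, 0.246 and 0.270 CPM, with an adjusted p of 1.2e-07, the smallest of the comparison and shared with other genes. Transcripts of rarer granulocytes were low: *Siglecf* ranged over 1.77 to 6.30 against 0.0411 to 0.0905 CPM and *Ccr3*, the eotaxin receptor, over 1.21 to 4.20 CPM in the immune libraries with no stromal read. *Epx*, the eosinophil peroxidase, had no read in the immune libraries, where the floor of 3 reads over the 4 libraries is 0.0558 CPM.

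Lymphocyte genes were called almost without exception. Of 19 T cell genes 18 were called higher in the immune fraction, as were all 14 genes of cytotoxic and innate lymphoid cells. *Icos*, a costimulatory receptor, ranged over 40.7 to 68.9 against 0.407 to 0.704 CPM, *Cd2*, an adhesion receptor, over 57.9 to 125 against 0.287 to 0.498 CPM, and *Lat*, the adaptor of the T cell receptor, over 24.3 to 48.3 against 0.0452 to 0.246 CPM. *Nkg7*, a granule protein of killer cells, stood at 80.2, 432, 248 and 167 against 0.271, 0.308, 0.123 and 0.101 CPM, and *Gzmb* and *Klrd1* at 73.2, 274, 197 and 124 CPM and 48.1, 129, 96.7 and 77.3 CPM in the immune libraries. In all 3, library 1 was the lowest and library 2 the highest. Of 8 B cell genes tested 7 were called higher in the immune fraction. *Cd79b*, a part of the B cell receptor complex, ranged over 2.67 to 8.73 CPM in the immune libraries, while *Jchain*, which joins secreted antibodies, ranged over 1.91 to 64.9 CPM and *Igkc* over 22.9 to 273 CPM. For *Jchain* and *Igkc* the order of the 4 immune libraries was the same, with 2 the lowest and 7 the highest.

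Genes of the leukocyte effector apparatus were mostly called on the immune side. All 8 Fc receptors and their adaptors, all 5 subunits of the phagocyte NADPH oxidase and all 17 genes of leukocyte signalling were called higher in the immune fraction, with median log2 fold changes of 8.35, 7.23 and 5.75. *Fcer1g*, the shared signalling chain of Fc receptors, ranged over 1386 to 5712 against 1.27 to 7.75 CPM, and *Cybb*, the catalytic oxidase subunit, over 138 to 387 against 0.452 to 3.74 CPM. *Cyba*, the partner of *Cybb* that many cells make, had the smallest difference of the 5, 3.38 ± 0.37, with 77.4 to 170.4 CPM in the stromal libraries. Innate sensors were less uniform, with 10 of 15 called higher in the immune fraction. *Cd14*, the co-receptor for endotoxin, had 2671, 15842, 2289 and 2464 CPM in the immune libraries and 8.06 to 20.4 CPM in the stromal libraries. *Myd88*, the adaptor of most Toll-like receptors, and *Tlr3*, the sensor of double-stranded RNA, were called higher in the stromal fraction, with log2 fold changes of -0.73 and -1.02. Both lost the call without immune 1, 7 or 8 or stromal 5, *Myd88* also without stromal 6 and *Tlr3* also without immune 2 or stromal 7 (adjusted p from 0.0638 to 0.126 in all these cases).

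Transcription factors parted in the same way. Of 21 haematopoietic factors tested 18 were called higher in the immune fraction, while 14 of 23 skin stromal factors were called higher in the stromal fraction and 3 in the immune fraction. *Spi1* encodes PU.1, the ETS factor on which myeloid cells depend, and stood at 359.7, 811, 293 and 358 against 1.49, 1.67, 0.657 and 0.405 CPM. *Irf8*, a partner of PU.1 in dendritic cells, had a log2 fold change of 4.45 ± 0.28, and *Tbx21*, the T-bet factor of type 1 lymphocytes, of 8.29 ± 0.57. On the stromal side, *Prrx1*, a homeobox factor of dermal fibroblasts, stood at 47.4, 20.2, 55.1 and 54.8 against 295, 192, 175 and 171 CPM, and *Twist1*, a mesenchymal factor, at 23.2, 8.02, 34.5 and 36.7 against 131.17, 136, 85.3 and 101 CPM. *Tbx15*, which patterns the dermis, and *En1*, which marks fibroblasts of the back, differed by -2.76 and -2.01 on the log2 scale. The 3 stromal factors called higher in the immune fraction are all endothelial, namely *Prox1* (8.40 to 24.7 against 3.71 to 6.69 CPM), *Sox17* (2.10 to 11.6 against 0.905 to 2.20 CPM) and *Erg* (0.191 to 2.91 against 0.0452 to 0.739 CPM). The call of *Erg* (adjusted p = 0.0251) was lost without immune 1 or 7 or any 1 of stromal 5, 6 and 8, where the adjusted p ranged from 0.0520 to 0.0707.

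PU.1 binds purine-rich sites, and the letters GAGGAAGT were searched on both strands in the 250 bases before each start in the RefSeq promoter table (GRCm38.p6). They occur in 2.44% of its 32851 promoters. Of the genes named here, 99 called higher in the immune fraction and 53 called higher in the stromal fraction have a promoter in the table, and 11 and 0 of them hold the letters. A comparison of these shares is void, because only 68.1% of the genes tested have a promoter in the table and at least 80% are needed. Promoters of 3 such genes are shown as examples, with the match in capitals, written from the gene's own strand and ending at the base before the start. They belong to *Cd37*, a tetraspanin of leukocytes (chr7:45238840-45239089, minus strand), *Tlr1*, a sensor of bacterial lipopeptides (chr5:64933559-64933808, minus strand), and *Hpgds*, the prostaglandin D2 synthase of mast cells and macrophages (chr6:65144731-65144980, minus strand).
Cd37: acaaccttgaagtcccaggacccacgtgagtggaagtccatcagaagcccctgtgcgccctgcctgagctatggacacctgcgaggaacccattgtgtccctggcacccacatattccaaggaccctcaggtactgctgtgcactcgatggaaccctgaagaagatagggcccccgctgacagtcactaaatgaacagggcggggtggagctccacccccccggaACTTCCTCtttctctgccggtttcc
Tlr1: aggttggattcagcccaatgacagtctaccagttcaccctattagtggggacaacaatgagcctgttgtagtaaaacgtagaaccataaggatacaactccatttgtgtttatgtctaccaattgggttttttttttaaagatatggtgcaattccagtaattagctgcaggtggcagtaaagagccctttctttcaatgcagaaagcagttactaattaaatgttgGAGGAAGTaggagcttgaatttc
Hpgds: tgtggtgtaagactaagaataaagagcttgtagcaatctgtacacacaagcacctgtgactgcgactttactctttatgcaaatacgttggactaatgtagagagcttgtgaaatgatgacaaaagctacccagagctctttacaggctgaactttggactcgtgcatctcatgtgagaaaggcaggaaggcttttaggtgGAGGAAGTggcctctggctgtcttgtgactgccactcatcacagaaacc
The match is on the opposite strand in the promoter of *Cd37* and on the gene's strand in the other two. It starts 25, 23 and 49 bases before the start of *Cd37*, *Tlr1* and *Hpgds*. A match is a description of the letters and does not show that PU.1 binds there. *Cd37* ranged over 88.5 to 196 against 0.287 to 0.881 CPM, *Tlr1* over 11.2 to 21.5 against 0.317 to 0.821 CPM and *Hpgds* over 20.4 to 49.2 against 0.452 to 1.01 CPM.

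Fibroblast and matrix genes were called on the stromal side nearly throughout. Of 16 fibroblast genes 15 were called higher in the stromal fraction (median log2 fold change -2.72), of 19 collagens 18 (-2.81), and of 19 matrix glycoproteins and crosslinkers 18 (-2.75). *Col1a1*, the main chain of dermal collagen I, stood at 772, 202, 532 and 897 against 10495, 8888, 6040.1 and 4928 CPM, and *Pdgfra*, the receptor that marks fibroblasts, at 38.9, 8.97, 39.1 and 42.5 against 309, 224, 299 and 218 CPM. *Pi16*, a marker of adventitial fibroblasts, ranged over 47.5 to 342 against 1415 to 2601 CPM, and *Mfap5*, a microfibril protein, over 41.8 to 212 against 691 to 1299 CPM. Basement membrane genes were on the same side, with *Col4a1* at 21.6 to 83.6 against 408 to 445 CPM, *Lamc1* at 15.47 to 48.4 against 185 to 376 CPM and *Nid1* at 20.4 to 69.0 against 302 to 1068 CPM. Enzymes that crosslink collagen and elastin, *Lox* and *Loxl1*, differed by -3.12 and -2.82 on the log2 scale. Immune library 2 had the lowest level of *Col1a1* and of *Pdgfra* in its fraction.

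The exceptions among these lists were *Crabp1*, *Col17a1* and *Thbs1*. *Crabp1*, a retinoid-binding protein of papillary fibroblasts and the dermal papilla, stood at 18.2, 14.7, 65.9 and 25.3 against 68.7, 45.6, 11.9 and 40.7 CPM, with overlapping groups. *Col17a1*, a hemidesmosome collagen of basal keratinocytes, stood at 12.1, 0.573, 2.54 and 7.53 against 5.29, 14.2, 21.5 and 18.8 CPM (adjusted p = 0.122). *Thbs1*, thrombospondin 1, a matricellular protein that platelets and myeloid cells also make, had 720.5, 4414, 376 and 424 CPM in the immune libraries and 1462, 1283, 1264 and 1179 CPM in the stromal libraries. Immune library 2 was thus above and the other 3 immune libraries below the whole stromal range. Without immune library 2 *Thbs1* was called higher in the stromal fraction, at a log2 fold change of -1.30 and an adjusted p of 0.00238.

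The stromal genes with the largest fold changes, chosen by the same rule as the immune ones, were of mixed origin. *Clec3b*, the tetranectin of fibroblasts, stood at 32.9, 5.35, 21.6 and 41.2 against 374, 446, 544 and 539 CPM, and *Cd248*, endosialin of fibroblasts and pericytes, at 30.8, 2.48, 88.4 and 72.7 against 471, 422, 900.2 and 864 CPM. *Gfpt2*, an enzyme of hexosamine synthesis, ranged over 18.3 to 269.8 against 1419.9 to 3308 CPM, *Scara3*, a scavenger receptor, over 2.67 to 34.3 against 229 to 451 CPM, and *Loxl4*, a lysyl oxidase, over 0.382 to 6.99 against 43.3 to 58.5 CPM. *Aldh1a3*, which makes retinoic acid, had 47.4, 18.7, 107 and 32.7 CPM in the stromal libraries and 0.531 to 4.95 CPM in the immune libraries. *Il33*, an alarmin that stromal and epithelial cells store, was uneven in the stromal fraction at 561, 25.2, 203 and 66.2 CPM, against 6.30 to 17.04 CPM in the immune fraction. *Atp2a1* and *Actn3*, genes of fast skeletal muscle fibres, ranged over 4.96 to 10.4 against 38.0 to 186 CPM and 0.955 to 8.46 against 26.7 to 72.5 CPM. *Cyp2g1*, a cytochrome P450, ranged over 0.573 to 7.33 against 10.7 to 142 CPM, and *Chrdl1*, a BMP antagonist, over 0.573 to 17.7 against 52.3 to 403 CPM. The remaining gene was *Col3a1*, the second main dermal collagen, at 205 to 1354 against 11145 to 15419 CPM.

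Proteases and their inhibitors were mostly called on the stromal side. Of 18 genes tested, 11 were called higher in the stromal fraction and 4 in the immune fraction. The shares of all genes tested were 25.1% and 23.9%, so the immune share was near that of all genes. *Mmp3*, stromelysin 1, stood at 137, 61.9, 99.2 and 109.8 against 1076, 708, 759 and 589.9 CPM, *Timp2* ranged over 260.2 to 684 against 2531 to 4207 CPM, and *Plat*, the tissue plasminogen activator, over 22.3 to 116 against 462 to 1014 CPM. The 4 on the immune side were *Mmp12*, the macrophage elastase (25.2 to 69.1 against 0.0881 to 0.780 CPM), *Mmp13* (3.07 to 8.91 against 0 to 0.985 CPM), *Mmp9*, a gelatinase of neutrophil granules (7.91 to 175 against 0.123 to 2.19 CPM), and *Plaur*, the urokinase receptor (562 to 1907 against 200.5 to 386 CPM). For *Mmp9* and *Plaur* immune library 2 was the highest of the 8.

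Genes of blood and lymphatic endothelium, whose cells lack CD45, were more often called higher in the CD45+ fraction than in the CD45- fraction. Of 14 blood endothelial genes 7 were called higher in the immune fraction and 1 in the stromal fraction. *Cdh5*, the VE-cadherin of all endothelium, stood at 31.3, 12.03, 19.8 and 11.5 against 2.81, 3.35, 1.89 and 2.50 CPM, with an adjusted p of 0.000296. *Cldn5*, a tight junction protein of vessels, ranged over 28.6 to 87.5 against 5.06 to 17.7 CPM, and *Pecam1*, which leukocytes and platelets carry too, over 19.7 to 50.8 against 7.08 to 17.4 CPM. *Tek*, the angiopoietin receptor, was called the other way at 14.6, 1.34, 8.43 and 10.97 against 22.3, 42.1, 155 and 65.1 CPM. Of 9 lymphatic endothelial genes 7 were likewise called higher in the immune fraction and only *Pdpn*, which fibroblasts also make (47.5 to 79.5 against 129.99 to 388 CPM), in the stromal fraction. *Ccl21a*, the chemokine that draws dendritic cells into lymphatic vessels, stood at 335, 129.8, 339.5 and 282 against 28.9, 57.5, 11.2 and 15.51 CPM, and *Lyve1*, a hyaluronan receptor of lymphatics and of some macrophages, at 159, 76.9, 134 and 108 against 26.4, 22.8, 6.45 and 4.72 CPM. *Prox1* and *Flt4*, which define lymphatic identity and growth, had log2 fold changes of 1.66 ± 0.34 and 2.17 ± 0.51. Immune library 2 held the lowest level of *Cldn5*, *Ccl21a*, *Lyve1*, *Prox1* and *Flt4* in its fraction. In unstretched skin 9 of 14 and 8 of 9 genes of these lists were called higher in the immune fraction. How the gate divided endothelial cells was not tested.

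Of 6 adipocyte genes tested 4 were called higher in the immune fraction and none in the stromal fraction. *Fabp4*, a fatty acid carrier of fat cells, capillaries and macrophages, stood at 965, 113, 485 and 399 against 32.9, 119, 47.5 and 55.1 CPM, and its groups overlapped, immune 2 lying below stromal 6. *Lpl*, the lipoprotein lipase, ranged over 413 to 605 against 173 to 343 CPM, and *Pparg*, a nuclear receptor of fat cells and macrophages, over 29.0 to 54.7 against 14.7 to 26.9 CPM. *Retn*, resistin, had 4.55, 31.3, 2.36 and 1.75 CPM in the immune libraries, highest in library 2. Without stromal 7 and 8 together 1 adipocyte gene was called. Of 12 pericyte and smooth muscle genes, 5 were called higher in the stromal fraction, where 25.1% of all genes tested were. Among them were *Pdgfrb* (12.2 to 38.7 against 123 to 180.3 CPM) and *Des* (7.83 to 32.8 against 67.5 to 130.1 CPM). In the immune fraction 2 were called higher, a smaller share than the 23.9% of all genes. Without immune 1 or stromal 5, 6 or 7 the stromal number was 3, a share near that of all genes. Those on the immune side were *Notch3* (4.37 to 7.28 against 1.27 to 3.37 CPM), whose call was lost without immune 1 (adjusted p = 0.0667), and *Rgs5* (3.63 to 19.5 against 4.19 to 6.61 CPM, immune 2 being the lowest of the 8), whose call was lost without immune 1, 7 or 8 or stromal 7 or 8.

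Epidermal and appendage genes, where called, were mostly on the stromal side. Of 12 basal keratinocyte genes 4 were called higher in the stromal fraction, among them *Cdh3*, P-cadherin, at 0.910, 0.382, 0.708 and 1.21 against 1.54, 4.58, 4.80 and 13.4 CPM. Of all genes tested, 25.1% were called higher in the stromal fraction. *Trp63*, the master factor of stratified epithelium, was called (adjusted p = 0.0153) although its groups overlapped, at 10.7, 1.34, 3.60 and 7.92 against 10.4, 21.4, 25.7 and 32.3 CPM. Of 10 suprabasal genes tested 2 were called higher in the stromal fraction, 1 in the immune fraction and 7 in neither. The 1 on the immune side was *Lor*, loricrin of the cornified envelope, at 25.4, 83.1, 68.0 and 50.8 against 9.68, 5.37, 6.45 and 1.32 CPM. Of 8 hair follicle genes tested 7 were called higher in the stromal fraction, including *Lgr5* and *Sox9* of follicle stem cells (1.72 to 9.42 against 22.4 to 54.2 CPM and 7.83 to 23.4 against 32.4 to 70.1 CPM) and *Krt79* of the upper follicle (3.44 to 48.7 against 88.0 to 221 CPM). *Krt35*, a hair keratin, had 3.76, 8.15, 0.739 and 48.3 CPM in the stromal libraries and 0, 0, 0.0590 and 0 CPM in the immune libraries, where the only read was in library 7. Melanocyte genes were called in 4 of 6, all higher in the stromal fraction, with *Pmel* at 5.28, 2.10, 3.83 and 10.49 against 17.2, 12.7, 15.97 and 55.4 CPM; stromal library 8 was the highest, and the list had 2 calls without stromal 8 or immune 1 or 7. Of 8 skeletal muscle genes tested 7 were called higher in the stromal fraction, with *Acta1*, skeletal actin, at 305, 82.5, 121 and 96.2 against 1284, 537, 906 and 1101 CPM and *Ckm*, muscle creatine kinase, at 7.64 to 27.8 against 49.0 to 138 CPM. Muscle lies beneath the dermis as a thin sheet in mouse skin. The 5 red cell genes summed to 24.6 to 86.9 CPM in the immune libraries and to 157, 646, 7.25 and 10.4 CPM in stromal libraries 5, 6, 7 and 8, a spread within the stromal fraction that spans the immune range.

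**Figure D3:**
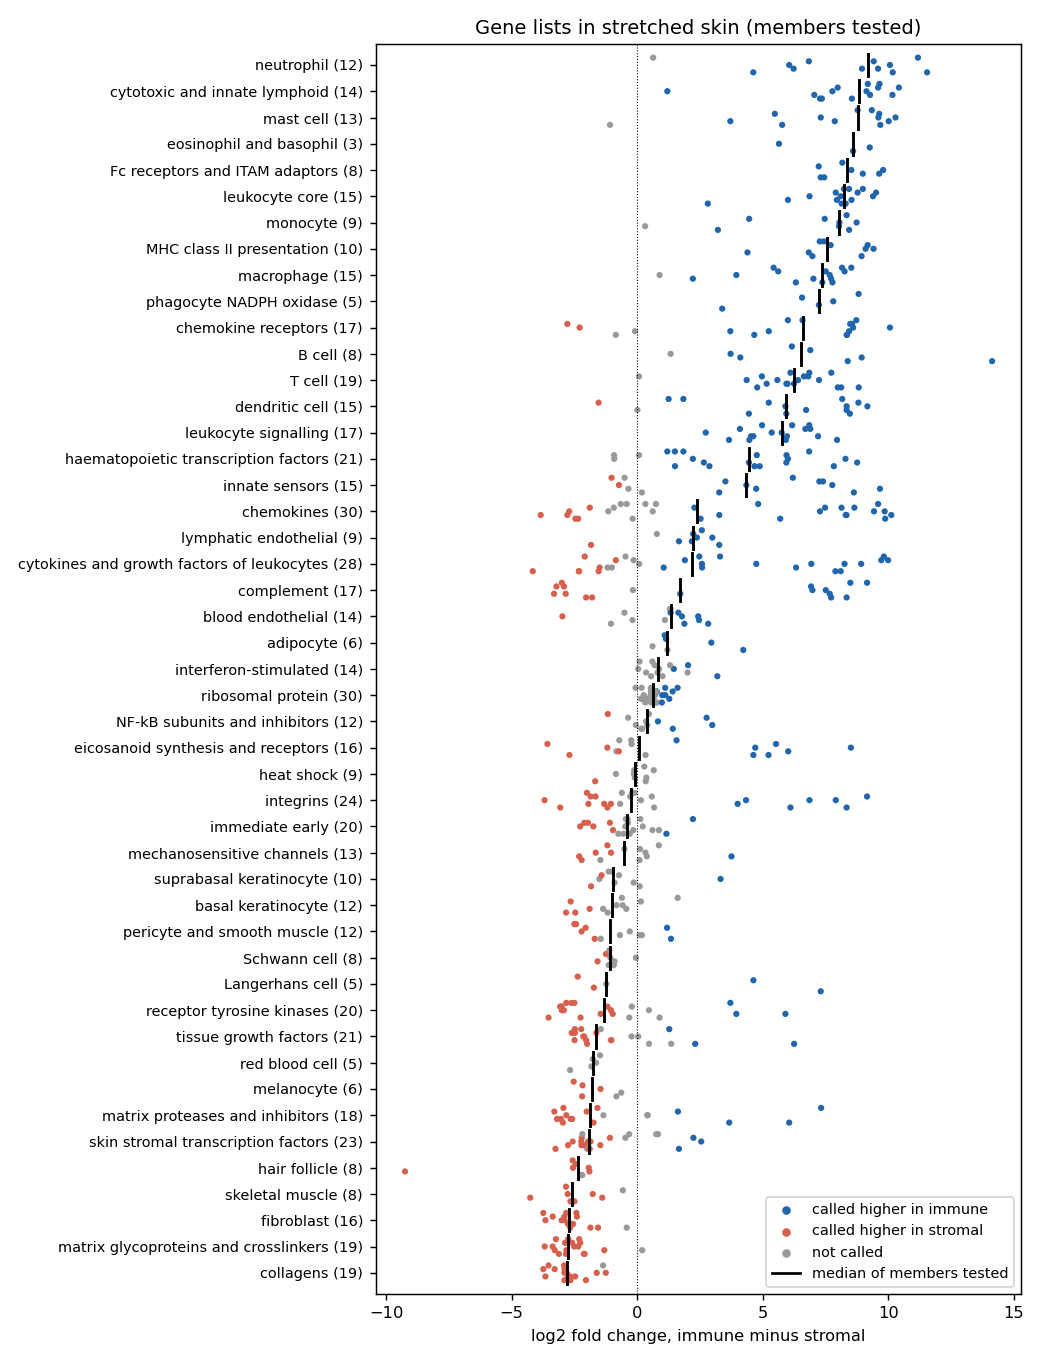
Log2 fold changes (immune minus stromal, x axis) of the tested members of 47 gene lists (y axis, number of members tested in brackets), ordered by the list's median (black bar); each point is 1 gene, blue where called higher in the immune fraction, red where called higher in the stromal fraction and grey where not called. Neutrophil genes have the highest median, 9.18, and collagens the lowest, -2.81, and the blood and lymphatic endothelial lists lie on the immune side.

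The mRNA of ligands and receptors was compared between the fractions in 36 pairs, and neither protein nor signalling was measured. In 9 pairs the ligand was called higher in the stromal fraction and the receptor in the immune fraction, and in 7 pairs it was the reverse. Both genes were called higher in the immune fraction in 6 pairs and in the stromal fraction in 1, and in the other 13 at least 1 gene was not called. Of all single genes tested, 25.1% and 23.9% were called higher in the stromal fraction and in the immune fraction. These shares are per gene, while a pair counts only when both its genes were called, so they are not a background for pairs. Such a background was not computed, and some receptors, such as *Csf1r* and *Il1r1*, occur in more than 1 pair.

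Among the pairs with a stromal ligand, *Csf1*, the growth factor on which macrophages depend, stood at 142, 169, 145 and 159 against 991, 915, 551 and 626 CPM, and its receptor *Csf1r* at 209.8, 96.6, 117 and 188 against 19.6, 7.57, 8.09 and 4.45 CPM. The second ligand of this receptor, *Il34*, was called at 0.382 to 4.47 against 4.55 to 9.11 CPM, but lost the call without any 1 of immune 1 and 7 and stromal 5, 6 and 7. *Kitl*, the stem cell factor that sustains mast cells, ranged over 4.96 to 15.7 against 26.2 to 41.0 CPM and its receptor *Kit* over 45.7 to 69.9 against 1.95 to 7.39 CPM. *Cxcl12*, which retains leukocytes in tissue, stood at 205, 21.96, 206 and 206 against 831, 1120.3, 827 and 755 CPM, with immune library 2 lowest by far, and its receptor *Cxcr4* at 47.2, 109.6, 25.8 and 34.4 against 0.543, 0.793, 0.287 and 0.607 CPM. *Cxcl1*, a neutrophil attractant, ranged over 377 to 919 against 1373 to 3200.4 CPM, and *Ccl11*, eotaxin, over 20.8 to 141 against 399 to 592 CPM. The endothelial and fibroblast adhesion molecules *Icam1* (201 to 618 against 1059 to 1384 CPM) and *Vcam1* (28.4 to 70.9 against 154 to 203 CPM) faced the integrin chains *Itgal* (19.9 to 101 against 0.0440 to 1.11 CPM) and *Itga4* (40.2 to 44.5 against 0.317 to 0.944 CPM). *Vegfc*, the lymphatic growth factor, ranged over 5.54 to 10.6 against 17.7 to 34.6 CPM, and its receptor *Flt4*, on the immune side here, over 5.54 to 21.1 against 1.05 to 4.71 CPM.

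Among the pairs with an immune ligand, *Il1b*, the main secreted form of interleukin 1, had 2799, 18569, 3430.1 and 3795 CPM in the immune libraries and 12.3, 10.6, 4.48 and 0.843 CPM in the stromal libraries. The receptor *Il1r1* was on the stromal side at 25.3, 12.8, 27.0 and 33.8 against 195, 108, 155 and 155 CPM, and *Il1a*, its other ligand, on the immune side at 23.9 to 86.9 against 0.226 to 0.821 CPM. *Osm*, oncostatin M, stood at 252, 953, 184 and 143 against 1.36, 0.572, 0.698 and 0.540 CPM, and the receptor chain *Osmr* at 52.9, 9.36, 32.7 and 53.8 against 171, 144, 213 and 153 CPM. Growth factors for fibroblasts and mural cells showed the same arrangement: *Pdgfb* ranged over 6.64 to 9.36 against 0.903 to 3.04 CPM and *Pdgfrb* over 12.2 to 38.7 against 123 to 180.3 CPM, and *Tgfb1* over 36.3 to 85.3 against 13.1 to 22.5 CPM and *Tgfbr2* over 49.6 to 158 against 487 to 1136 CPM. *Pdgfa* was called at 7.64 to 21.8 against 4.80 to 7.79 CPM although its groups overlapped, opposite *Pdgfra*. *Areg*, amphiregulin, which lymphocytes and mast cells release in injured skin, stood at 81.6, 185, 174 and 135 against 0.362, 2.73, 1.97 and 2.46 CPM, and the receptor *Egfr* at 28.5, 6.30, 23.1 and 27.3 against 146, 127, 193 and 144 CPM. *Gas6* and *Axl*, a ligand and its receptor kinase, were both on the stromal side (58.4 to 585 against 972 to 1940.4 CPM and 16.8 to 115 against 696 to 1145 CPM). Both genes were on the immune side for *Xcl1* and *Xcr1* (19.4 to 130.03 against 0 to 0.176 CPM and 11.9 to 25.1 against 0.136 to 1.35 CPM), which pair lymphocytes with dendritic cells.

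**Figure D4:**
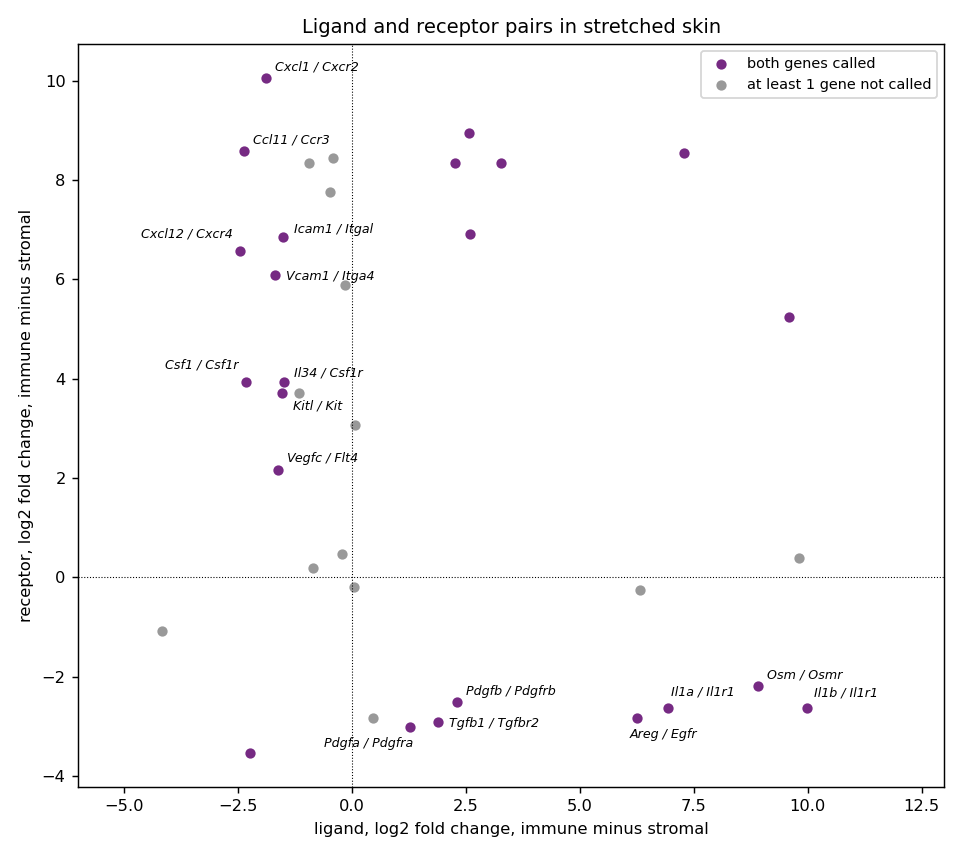
Log2 fold change (immune minus stromal) of the ligand (x axis) and of the receptor (y axis) in 36 ligand and receptor pairs, 1 point per pair, purple where both genes were called and grey where at least 1 was not. The 9 labelled pairs at the upper left have a ligand higher in the stromal and a receptor higher in the immune fraction, and the 7 labelled pairs at the lower right have the reverse.

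Over whole families, chemokines and cytokines were more often called higher in the immune than in the stromal fraction. Of all genes tested, 23.9% were called higher in the immune fraction and 25.1% in the stromal fraction. The stromal shares of these 2 families were near or below that of all genes. Of 30 chemokines 16 were called higher in the immune fraction and 6 in the stromal fraction. *Ccl6* and *Ccl9*, chemokines of myeloid cells, ranged over 1686 to 4342 against 4.02 to 8.45 CPM and 905 to 1361 against 1.72 to 5.77 CPM, and *Ccl17* and *Ccl22*, which attract CCR4-bearing T cells, over 14.6 to 48.9 against 0 to 0.0881 CPM and 50.3 to 166 against 0 to 0.246 CPM. On the stromal side were *Cxcl14*, a chemokine of skin epithelium and stroma (5.73 to 23.4 against 63.9 to 195 CPM), and *Cxcl13*, a B cell attractant (1.53 to 34.2 against 45.8 to 259 CPM), beside *Cxcl12*, *Cxcl1* and *Ccl11*. *Ccl2*, the ligand of *Ccr2*, was not called, with overlapping groups at 2857, 1243, 2414 and 1869.9 against 3437, 3016, 2074 and 2705 CPM and a log2 fold change of -0.42 ± 0.33. Of 28 cytokines 16 were called higher in the immune fraction, among them *Tnf* (149.5 to 246 against 1.32 to 5.46 CPM), *Il10* (42.4 to 127 against 0.0821 to 0.641 CPM) and *Ifng* (12.6 to 41.8 against 0 to 0.0881 CPM), and 7 in the stromal fraction. *Il6* was 1 of the 7, with 566 to 754 CPM in the immune libraries and 987 to 1469.8 CPM in the stromal libraries; its call was lost without immune 7 (adjusted p = 0.0530). *Csf2* and *Csf3*, the growth factors of granulocytes, were on the immune side (38.6 to 79.2 against 8.81 to 11.6 CPM and 33.9 to 111 against 6.24 to 14.1 CPM). Tissue growth factors ran the other way, with 12 of 21 called higher in the stromal fraction and 3 in the immune fraction. *Fgf7*, a fibroblast signal to keratinocytes, ranged over 6.11 to 26.0 against 85.4 to 135 CPM. Receptor tyrosine kinases were called higher in the stromal fraction in 13 of 20, with *Ddr2*, a collagen receptor, at 15.3 to 65.0 against 296 to 433 CPM. The 3 on the immune side were *Kit*, *Csf1r* and *Flt3* (13.6 to 49.4 against 0 to 1.27 CPM), the receptors of mast cells, macrophages and dendritic cells.

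Complement genes were called on both sides. Of 17 tested, 9 were called higher in the immune fraction and 7 in the stromal fraction. On the immune side, the 3 chains of C1q, which starts the classical pathway, ranged over 118 to 630.4 against 0.498 to 3.70 CPM for *C1qa*, 411 to 1716 against 1.85 to 13.6 CPM for *C1qb* and 173 to 934 against 1.18 to 6.91 CPM for *C1qc*. The immune side also held the receptors *C3ar1* (55.0 to 231 against 0.304 to 1.52 CPM), *C5ar1* (226 to 1154 against 0.506 to 2.17 CPM) and the integrin chains *Itgam* (51.1 to 217 against 0.0337 to 0.407 CPM) and *Itgax* (15.01 to 55.2 against 0.0821 to 0.135 CPM), and properdin, *Cfp*, at 409.7, 429, 385 and 397 against 2.94, 5.02, 2.50 and 2.90 CPM. The ninth was *Cfd*, factor D, at 22.6, 9.17, 9.73 and 7.33 against 3.71, 7.66, 2.13 and 1.45 CPM, whose groups overlapped and whose call was lost without immune 1 or stromal 5, 7 or 8 (adjusted p from 0.0556 to 0.0923). The stromal side held *C3* itself, at 115, 85.9, 140.5 and 196 against 910.5, 658, 2517 and 1266 CPM, the proteases *C1ra* and *C1s1* (12.8 to 95.3 against 413 to 553 CPM and 7.06 to 89.7 against 339 to 643 CPM), *C4b* (18.3 to 89.3 against 317 to 1201 CPM), *C2* (2.10 to 8.55 against 19.5 to 30.5 CPM) and *Cfb*, and the C1 inhibitor *Serping1* (121 to 953 against 3348 to 4713 CPM). In stromal library 7 the list summed to 10255 CPM, against 6615 to 6742 CPM in the other 3, and *C3* was highest there too.

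Of 16 eicosanoid genes tested, 7 were called higher in the immune fraction and 4 in the stromal fraction. The shares of all genes tested were 23.9% and 25.1%, so the stromal share was near that of all genes. *Alox5ap* and *Alox5*, which start leukotriene synthesis, ranged over 117 to 327 against 0.411 to 0.616 CPM and 10.3 to 36.7 against 0.136 to 0.528 CPM, and the prostaglandin E2 receptors *Ptger2* and *Ptger4* over 5.09 to 19.1 against 0.264 to 0.506 CPM and 35.7 to 52.2 against 12.9 to 16.3 CPM. *Ptges*, which makes prostaglandin E2, stood at 25.0, 7.83, 31.5 and 33.2 against 178, 153, 163 and 147 CPM, and *Ptgis* and *Ptgir*, the synthase and receptor of prostacyclin, ranged over 0.955 to 5.42 against 8.63 to 82.3 CPM and 13.4 to 20.6 against 21.6 to 51.6 CPM.

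Mechanosensitive channels pass ions when a membrane is stretched. Of 13 tested, 5 were called higher in the stromal fraction, 1 in the immune fraction and 7 in neither, where 49% of all genes tested were called, so the share called was near that of all genes. *Pkd2* and *Pkd1*, the polycystins, stood at 26.7, 13.9, 24.8 and 27.9 against 94.8, 105, 159 and 107 CPM and at 8.82, 4.01, 10.3 and 13.9 against 28.6, 41.4, 67.4 and 37.7 CPM. *Tmem63a*, a channel opened by high tension, ranged over 16.8 to 25.8 against 58.1 to 88.8 CPM, and *Trpc1* over 2.29 to 6.604 against 9.82 to 12.4 CPM. The gene on the immune side was *Trpv2*, a cation channel of macrophages and mast cells, at 46.7, 76.9, 44.4 and 47.9 against 3.21, 3.96, 4.64 and 4.15 CPM. Integrins were called in 7 of 24 higher in the immune fraction and in 9 higher in the stromal fraction, with *Itgb7*, a lymphocyte and mast cell chain, at 88.3 to 138 against 2.03 to 10.6 CPM.

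Lists of genes that answer to stress and signalling had median log2 fold changes of -0.42 for immediate early, -0.10 for heat shock, 0.37 for NF-kB and 0.84 for interferon-stimulated genes. The counts below stand beside 49% of all genes tested that were called, 25.1% higher in the stromal and 23.9% higher in the immune fraction. Of 20 immediate early genes 6 were called higher in the stromal fraction and 2 in the immune fraction. *Egr1*, an early growth response factor, stood at 960.4, 935, 1613 and 2097 against 4276, 3601, 7917 and 6083 CPM, *Jun* at 653, 413, 983 and 1121 against 2189.6, 1974, 3635 and 2866 CPM and *Myc* at 163, 71.8, 228 and 290.4 against 717, 833, 1139 and 959.9 CPM. *Fosl1* and *Fosl2*, 2 related AP-1 subunits, went in opposite directions, with *Fosl1* at 9.37, 13.9, 9.61 and 16.3 against 60.6, 63.1, 36.6 and 51.8 CPM and *Fosl2* at 434, 901, 409 and 446 against 106, 134, 113 and 118 CPM, and *Egr3* was on the immune side with *Fosl2* (53.1 to 109 against 29.1 to 51.2 CPM). Of 12 NF-kB genes 4 were called higher in the immune fraction and 1 in the stromal fraction. *Rel*, the subunit prominent in lymphocytes, stood at 369, 391, 339 and 429 against 37.7, 52.3, 71.4 and 64.1 CPM, whereas *Rela*, the widely made subunit, stood at 152, 155, 159 and 220.4 against 349, 404, 356 and 441 CPM. The inhibitors *Nfkbie* and *Nfkbib* ranged over 165 to 379.8 against 21.2 to 35.7 CPM and 204 to 253 against 53.9 to 112 CPM. Among 9 heat shock genes only *Bag3*, a co-chaperone of filamin turnover, was called, at 108, 61.5, 128 and 270.5 against 417, 395, 420.1 and 586 CPM. Of 14 interferon-stimulated genes 3 were called, all higher in the immune fraction; the number was 1 without immune 2 or stromal 6, 7 or 8, and 6 without immune 7 or 8 or stromal 5. Ribosomal protein genes were called higher in the immune fraction in 10 of 30, with *Rps9* at 620.2 to 1374 against 176 to 359 CPM, and the number was 6 without immune 1 or stromal 8.

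Many of the sort differences were also called without stretch. In unstretched skin 15142 genes had enough reads and 7484 (49.4%) were called, 4027 higher in the immune fraction (26.6%) and 3457 higher in the stromal fraction (22.8%). Across the 15020 genes tested in both conditions, which share no library, the log2 fold changes had a Pearson's r of 0.880 and a Spearman's rho of 0.787, as a description across genes. Of the genes called higher in the immune fraction of stretched skin and tested in both, 2834 of 3712 (76.3%) were also called so in unstretched skin, and they made up 71.6% of the 3957 called there. For the stromal fraction the number was 2302 of 3972 (58.0%), which made up 66.6% of the 3457 called there. Opposite calls were made for 7 and 15 genes. The unstretched immune libraries were shallow, at 2645421 to 6662268 reads, and immune 4 among them held 6209 CPM of olfactory and vomeronasal receptor reads; without it 8566 genes were called in unstretched skin. None of the 8 unstretched libraries entered the calls in stretched skin. Blood endothelial genes had a median log2 fold change of 2.99 in unstretched and 1.33 in stretched skin, and lymphatic endothelial genes 3.92 and 2.23. Basal keratinocyte genes had medians of 0.96 and -1.004, and fibroblast genes of -3.62 and -2.72.

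**Figure D5:**
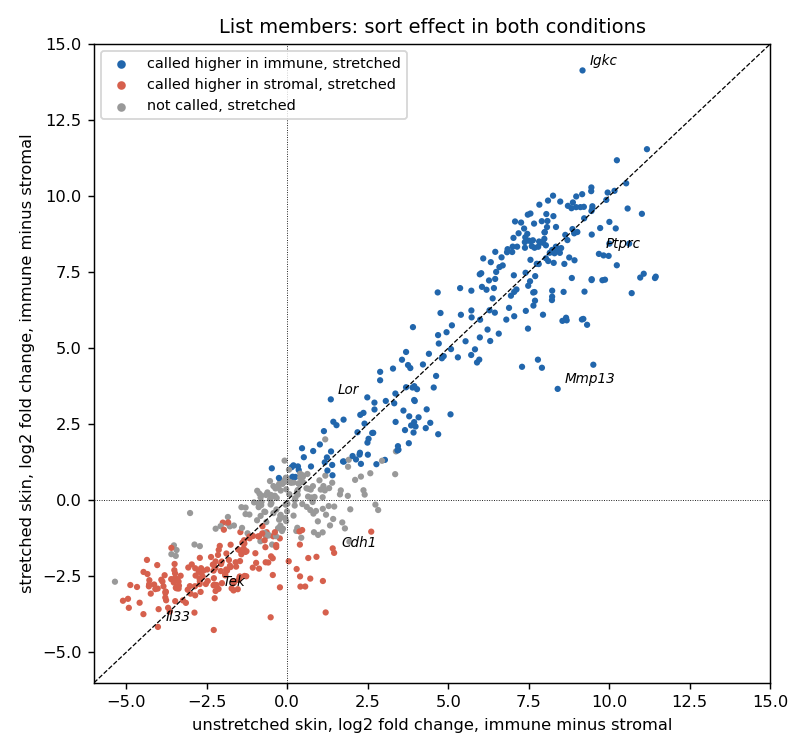
Log2 fold change between the immune and the stromal fraction in unstretched skin (x axis) and in stretched skin (y axis) for 594 members of the gene lists tested in both, 1 point per gene, coloured by the call in stretched skin; the dashed line marks equal values. *Mmp13* and *Cdh1* lie below it (3.66 in stretched against 8.40 in unstretched skin, and -1.73 against 1.46) and *Lor* above it (3.32 against 1.35).

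The difference of the sort effects was tested gene by gene over all 16 libraries, which asks whether stretch changed one fraction more than the other. By edgeR's quasi-likelihood test no gene of 18295 tested passed (0%), the smallest adjusted p being 0.0573, while 4232 had an unadjusted p under 0.05. With RLE in place of TMM scale factors the count was also 0, and with upper-quartile factors it was 25. DESeq2 called 1625 genes, limma-voom with quality weights 1453, and edgeR without a filter on low counts 3924. Left out 1 at a time, immune control 6, immune stretched 2 and immune control 4 gave 1495, 114 and 29 calls, and each of the other 13 libraries gave none. The 10 genes with the smallest p share the adjusted p of 0.0573 and are given as values. In all 10 the log2 fold change was higher in stretched than in unstretched skin. The difference comes from the fit of all 16 libraries and need not equal the 2 fold changes subtracted. *Tubb4a*, a beta tubulin, had log2 fold changes of -2.68 in stretched and -5.84 in unstretched skin, a difference of 3.40 ± 0.55. *Naa60*, an N-terminal acetyltransferase of the Golgi, had log2 fold changes of -0.35 in stretched and -2.94 in unstretched skin, a difference of 2.81 ± 0.43. *Coro1b*, a coronin of many cell types, had log2 fold changes of 0.49 in stretched and -2.05 in unstretched skin, a difference of 2.76 ± 0.48. In each of the 3 all immune libraries of unstretched skin lay below all of stretched skin, at 0.270 to 1.07, 1.08 to 3.51 and 10.6 to 48.8 CPM against 1.72 to 6.99, 9.64 to 16.3 and 129 to 157 CPM, each condition scaled on its own. Because the genes were picked by p in these same libraries, this separation is no added support. The unstretched immune libraries were shallow, so the values of *Tubb4a* and *Naa60* there rest on few reads. *Orai1*, the pore of store-operated calcium entry, had log2 fold changes of 2.45 in stretched and 0.78 in unstretched skin, a difference of 1.88 ± 0.35, and *Pgam1*, a glycolytic enzyme, log2 fold changes of -0.18 in stretched and -2.77 in unstretched skin, a difference of 2.81 ± 0.51. The differences of the other 5, *Uck1*, *Slc25a11*, *Mif4gd*, *Dnal4* and *Yipf3*, ranged from 1.61 to 2.33 on the log2 scale.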

How the data were processed

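Bulk mRNA was sequenced from sorted CD45+ and CD45- mouse skin cells. The SMART-Seq mRNA LP kit made the cDNA and the Nextera XT kit the libraries, per the labels' protocols. The authors ran FastQC 0.11.9 and aligned to mm10 by STAR, per the submitters' processing notes. Their deposited table gives the raw count of each gene, without normalization. Neither the STAR version nor the counting tool, its annotation, its strand setting and its handling of multi-mapped reads is stated in the sources used here, so genes that overlap on opposite strands, and near-identical copies (*Bcl2a1a*, *Stfa2l1*, the *Gzm*, *Mcpt*, *Mrgprb*, H2 and immunoglobulin genes), may share reads. GENCODE M21 (GRCm38) supplied symbols for 55394 of 55487 gene IDs.

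The 8 stretched libraries were fitted in edgeR 4.0.16 (R 4.3.3) after filterByExpr (minimum count 10, minimum total 15), scaled by TMM and tested with the quasi-likelihood F test, and p-values were adjusted over all genes tested. The same was done for the 8 unstretched libraries, and the difference of the sort effects was tested in all 16. The filter keeps a gene that is high in 1 fraction only, so counts cover the members tested. CPM of genes are TMM-scaled within each condition, and list sums are scaled to the library total. SEs were derived from the F statistic. Floors for 0 reads are 3 reads over a group and cover counting error only, because reads copied by PCR and carrying no molecular identifier do not stand for separate molecules. The procedure was also run on simulated data in which only a small part of the genes differed. That setting does not test scaling where as many genes differ as here, and its outcome is not reported here.

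Members and gene lists were chosen with earlier results of these data known. Genes named are *Ptprc*, the 12 with the largest fold on each side (called, groups not overlapping, mean of at least 50 CPM), per list up to 5 members of smallest p, list members called against the majority, the ligands and receptors of the pairs, the 10 genes with the smallest p for the difference (mean of at least 10 CPM in a group), and cell type genes at 0 reads in a fraction. Some genes the rule names are not reported here. Outside this rule, *Mertk*, *Il1r2*, *Crabp1*, *Col17a1*, *Thbs1*, *C1qa*, *C1qb*, *C1qc*, *Cfd* and the microRNA hosts were chosen after their values were seen. Alternatives were other scale factors, DESeq2 1.42.0, limma-voom 3.58.1, other filters, a fold minimum of 2, all 16 libraries in 1 fit, thinning, and leaving libraries out.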

Additional observations from a re-analysis of the deposited data

Results flagged for a closer look

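Within each group of 4 libraries, the highest or lowest value of a named gene or of a list sum was singled out when its gap to the nearest other library, divided by the range of the group, was above Dixon's critical value for 4 values at the 95% level. Of 538 such groups 74 met this (13.8%), and 36 of them were in immune library 2. The 95% level assumes normally distributed values, whereas these were untransformed CPM, some from very few reads. The groups are also not independent, because list sums contain some of the named genes. A share due to chance was not computed, so the 13.8% is a description only.

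Immune library 2 was far above the other 3 immune libraries in *Lcp1* (1200.4 CPM), *F10* (150.5 CPM), *Csf3r* (793 CPM), *Clec4d* (2403 CPM), *Cxcr2* (366 CPM), *S100a8* (19424 CPM), *S100a9* (21582 CPM), *Cd14* (15842 CPM), *Spi1* (811 CPM), *Mcemp1* (1158 CPM), *Mir142hg* (174 CPM), *Stfa2l1* (405 CPM), *Thbs1* (4414 CPM), *Mmp9* (175 CPM), *Plaur* (1907 CPM), *Retn* (31.3 CPM), *Il1b* (18569 CPM), *Osm* (953 CPM), *Ccl6* (4342 CPM), *C5ar1* (1154 CPM), *Trpv2* (76.9 CPM), *Fosl2* (901 CPM), *Mir22hg* (674 CPM) and *Il1r2* (3876 CPM). The same held for the sum of the neutrophil list (42165 CPM), the sum of the innate sensors list (13469 CPM), the sum of the cytokines and growth factors of leukocytes list (15982 CPM) and the sum of the eicosanoid synthesis and receptors list (1101 CPM). It was far below them in *En1* (2.48 CPM), *Pdgfra* (8.97 CPM), *Nid1* (20.4 CPM), *Cxcl12* (21.96 CPM), *Tmem63a* (16.8 CPM) and *Mir99ahg* (12.4 CPM), and in the sum of the skin stromal transcription factors list (57.1 CPM) and the sum of the collagens list (713 CPM).

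Among the other immune libraries, immune 1 stood high in *Mertk* (28.3 CPM), *Acta1* (305 CPM), *Il10* (127 CPM) and *Cfd* (22.6 CPM). Immune 7 stood high in *Batf3* (61.1 CPM) and *Krt35* (0.0590 CPM), the latter from 1 read, and low in the sum of the haematopoietic transcription factors list (2382 CPM). Immune 8 stood high in *Aldh1a3* (4.95 CPM) and *Rela* (220.4 CPM).

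In the stromal fraction the library that stood apart was always the highest. Stromal 5 stood high in *S100a8* (6.29 CPM), *S100a9* (6.52 CPM), *Prrx1* (295 CPM), *Mfap5* (1299 CPM) and the sum of the mast cell list (305 CPM). Stromal 6 stood high in *Adgre1* (1.63 CPM), *Lyz2* (57.0 CPM), *Cd83* (9.95 CPM), *H2-Aa* (25.2 CPM), *H2-Ab1* (44.3 CPM), *Ifng* (0.0881 CPM), *C1qb* (13.6 CPM), *C1qc* (6.91 CPM) and the sum of the MHC class II presentation list (184 CPM). Stromal 7 stood high in *Ptprc* (3.57 CPM), *F10* (0.287 CPM), *Xcr1* (1.35 CPM), *Mmp12* (0.780 CPM), *Il1a* (0.821 CPM), the sum of the matrix proteases and inhibitors list (13003 CPM) and the sum of the complement list (10255 CPM), and stromal 8 in *Itgax* (0.135 CPM), *Mmp9* (2.19 CPM), *Krt35* (48.3 CPM), *Pmel* (55.4 CPM), *Tnf* (5.46 CPM), *Pdgfb* (3.04 CPM), *Bag3* (586 CPM) and the sum of the melanocyte list (284 CPM).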

How the results depend on the processing

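The number of genes called in stretched skin, 8380, stayed within 1.5 times under 9 further settings, from 6866 with at least 50 reads in 4 libraries to 9892 with limma-voom, and ranged from 7002 to 8222 when 1 library was left out. It was 3502 against a fold minimum of 2 and 5402 without stromal 7 and 8 together. The share called higher in the immune fraction, 48.8%, was 59.8% with all 16 libraries in 1 fit and 57.3% against a fold minimum of 2. In unstretched skin the number, 7484, ranged from 6366 to 8566 when 1 library was left out. For the difference of the sort effects, 0 genes in edgeR became 25 with upper-quartile factors, 1625 in DESeq2, 1453 in limma-voom, 3924 with no filter and 120 with at least 50 reads in 4 libraries, and from 0 to 1495 when 1 library was left out. The cause was not tested.

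Title numbers 7 and 8 occur in both fractions of stretched skin, where same-numbered libraries deviated together by -0.001 and 0.054 (correlation). Over all numbers, some of which join a stretched with an unstretched library, the correlations were -0.121 to 0.162. The number is therefore not taken as a pairing, though these values do not exclude one. With the number as a replicate block, 7291 genes were called in the 8 stretched libraries, 3642 in the 8 unstretched libraries, and 4780 (64% of them higher in the immune fraction) for stretched skin in all 16, with 2 genes for the difference. In the fits of 8 libraries only numbers 7 and 8 (stretched) or 3 and 4 (unstretched) occur in both fractions. Only those libraries inform the contrast there, and hardly any spread is left to estimate error. The counts of these fits are therefore no check of the main result.

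Of 215 named genes called, 172 kept the call under each of 21 alternatives that gave them a p, and 206 kept it in each of the 8 omissions of 1 library. The sign turned for 4 genes that were not called. The log2 fold change of *Thbs1* ranged from -1.30 to 0.51 when 1 library was left out, and was -1.16 in limma-voom, -1.42 without immune 2 and stromal 7 and 8, and -1.61 and -1.10 with the block in 8 and 16 libraries. That of *Il1r2* ranged from -1.65 to 0.97 when 1 library was left out, and was -1.24, -2.05, -1.30 and -0.92 in the same order. With the block, *Crabp1* was at 0.88 in 8 libraries and *Ccl2* at 0.0213 in 16. The fit with the block in 8 libraries is 1 of the 21 alternatives and has the limit given above. DESeq2 gave no adjusted p for 205 genes, 13 of them named, which are left out of these counts. Immune libraries were shallower than stromal ones, so absence of a read limits an immune level less tightly, at 0.0558 CPM against 0.0304 CPM.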
